A study of Mus musculus with 6 samples.

Results

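The genes described here are 10 mouse genes that the literature reports as bound and activated by ZBTB24, taken from the 43309 genes counted in these libraries. They are Cdca7, Taf6, Cdc40, Arid4b, Ostc, Axin2, Rnf169, Ammecr1l, Camkmt and Cnpy4, found by symbol through the GENCODE Release M21 annotation of mm10, and each matched 1 row of counts. All 10 are protein coding, and all 10 passed the filter of at least 10 fragments in at least 1 library. Whether ZBTB24 is bound at them in these cells was not measured here.

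The libraries came from mouse embryonic stem cells (mESCs), pluripotent cells grown as lines, of strain J1 (129SV), cultured in serum on gelatin without feeder cells. The control group had 3 lines of genotype 2lox/+, labelled Zbtb24 wild-type, and therefore carried loxP sites on 1 Zbtb24 allele. The other group had 3 lines of genotype 1lox/1lox, labelled Zbtb24 knockout, in which 1lox denotes the allele left by recombination between loxP sites. The lines of both groups are clones, and each gave 1 TruSeq Stranded mRNA library with 25042261 to 28838924 counted fragments. With 3 clones a group, a difference between the sets of clones and an effect of the genotype cannot be told apart. The p-values below measure the difference against the spread between these clones.

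ZBTB24 is a transcription factor with a BTB domain, which mediates contacts between proteins, and a row of C2H2 zinc fingers, which bind DNA. Loss of its function causes a form of ICF syndrome, a disorder of immunodeficiency with unstable centromeres and facial anomalies, in which DNA methylation is lost at pericentromeric repeats. Other forms of the syndrome are caused by mutations of DNMT3B, a DNA methyltransferase, of CDCA7 and of HELLS, a nucleosome remodeler that CDCA7 brings to chromatin. Cdca7 is thus both a reported ZBTB24 target and a gene of the same syndrome. The other reported targets have unrelated roles, in transcription initiation, splicing, histone deacetylation, N-glycosylation, Wnt signaling, the response to DNA breaks and protein methylation.

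The zinc fingers of ZBTB24 are known to recognize a sequence whose core reads CAGGACCT. RefSeq windows on GRCm38.p6 from 250 bases before to 50 bases after a RefSeq start were found for 8 of the 10 genes, and none for Ostc and Ammecr1l. CAGGACCT, on either strand, was in a window of 5 of these 8 genes, against 1.99% of all 32851 windows in the table. The first value counts genes with the motif in any window (Taf6 had 2 windows), and the second counts single windows. The genes were listed for reported binding by ZBTB24, so this share is no independent evidence of binding. The 5 genes are Cdca7, Taf6, Cdc40, Camkmt and Cnpy4, and the windows of Arid4b, Axin2 and Rnf169 did not hold these letters. The stretches around the matches are shown because they are the sequence feature these genes share, written along the strand of the named gene with the motif or its reverse complement, AGGTCCTG, in capitals. Distances run from the GENCODE start of the gene, as in its coordinates further on. The RefSeq starts around which these windows were cut lie 50 to 225 bases inside the GENCODE bounds.

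Cdca7, chr2:72476119-72476148, plus strand, 29 bases upstream of the start: atcttagctggCAGGACCTgcgtcccggcg

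Taf6, chr5:138187222-138187251, minus strand, 211 bases past the start: ttggcttctgcCAGGACCTactcctgtcag

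Taf6, chr5:138187388-138187417, minus strand, 45 bases past the start: gcgccttctgaAGGTCCTGacagctgggta

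Cnpy4, chr5:138187388-138187417, plus strand, 86 bases upstream of its own start: tacccagctgtCAGGACCTtcagaaggcgc

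Cdc40, chr10:40883123-40883152, minus strand, 170 bases past the start: tgacaatctgaCAGGACCTgggagacgctg

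Cdc40, chr10:40883286-40883315, minus strand, 7 bases past the start: tttaatcaacgAGGTCCTGaaagttacaaa

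Camkmt, chr17:85090631-85090660, plus strand, 90 bases past the start: ccgggcgtcacAGGTCCTGacagggaagaa

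Camkmt, chr17:85090656-85090675, plus strand, 115 bases past the start, at the end of the window: aagaagttggcAGGTCCTGa

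The Taf6 match 45 bases past the start and the Cnpy4 match are the same 8 bases read from opposite strands, so the 8 matches were 7 sites. Taf6, Cdc40 and Camkmt each had 2 copies in 1 window, as had 13 of all windows, or 0.0396%. A match describes the letters only.

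Zbtb24 (ENSMUSG00000019826, chromosome 10, 41450383 to 41465574) is the targeted gene and was measured first as a check of the labels. Its level was 18.1, 18.6 and 17.8 cpm (counts scaled by TMM to a common library size) in control lines 1 to 3 and 34.0, 37.6 and 36.8 cpm in the lines labelled knockout. The log2 fold change, knockout minus control as everywhere below, was 0.99 (standard error 0.05, adjusted p = 4.32e-23 in edgeR's quasi-likelihood test). Zbtb24 counts over the whole gene were therefore higher. They do not show which exons were transcribed, so they cannot tell whether the gene was lost as labelled. Hence the wording "libraries labelled knockout" for that group. The background to all comparisons is wide, since 69.5% of the 16823 genes tested differed between the groups at an FDR of at most 0.05.

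Against this background, 8 of the 10 reported targets fell in the libraries labelled knockout, none rose and 2 did not pass the test. Of all genes tested, 35.2% fell and 34.4% rose. The 10 genes were listed for reported activation by ZBTB24 and chosen with earlier results of these data known. Their counts, set here and below beside shares of all genes, are therefore no independent evidence of that activation. The 8 genes that fell are Axin2, Cdca7, Ostc, Cnpy4, Taf6, Cdc40, Camkmt and Rnf169, and the other two are Arid4b and Ammecr1l. The spread between clones was small, with an estimated coefficient of variation of 2.00%. Between libraries of the same group the mean chi-square per gene was 1.14 to 2.24, where counting noise alone gives about 1. Whether the lines differ as much as independently derived clones do was not tested. With a dispersion of 0.16 for every gene, edgeR's exact test called 3 of the 10 lower, and Taf6, Cdc40, Cnpy4, Camkmt and Rnf169 lost their call. In that test 1119 of the 16823 genes tested were called lower and 337 higher. In 6 of the 10 the log2 fold change was -1 or lower together with a passed test, which held for 11.8% of all genes tested. In 7 of the 10 the fall was significantly beyond a log2 size of 0.5 in edgeR's glmTreat test, which held for 15.6% of all genes. The median log2 fold change of the 10 was -1.27, and over all genes tested it was 0.00 (-0.00036). The 5th percentile of all genes was -1.97 and the 95th was 1.04. In such bulk RNA, fewer cells that express a gene and less RNA per cell cannot be told apart. Groups did not overlap in the 8 genes that fell, as in 36.2% of all genes in that direction, and no member was without overlap in the other direction, as 35.3% of all genes were.

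**Figure D1:**
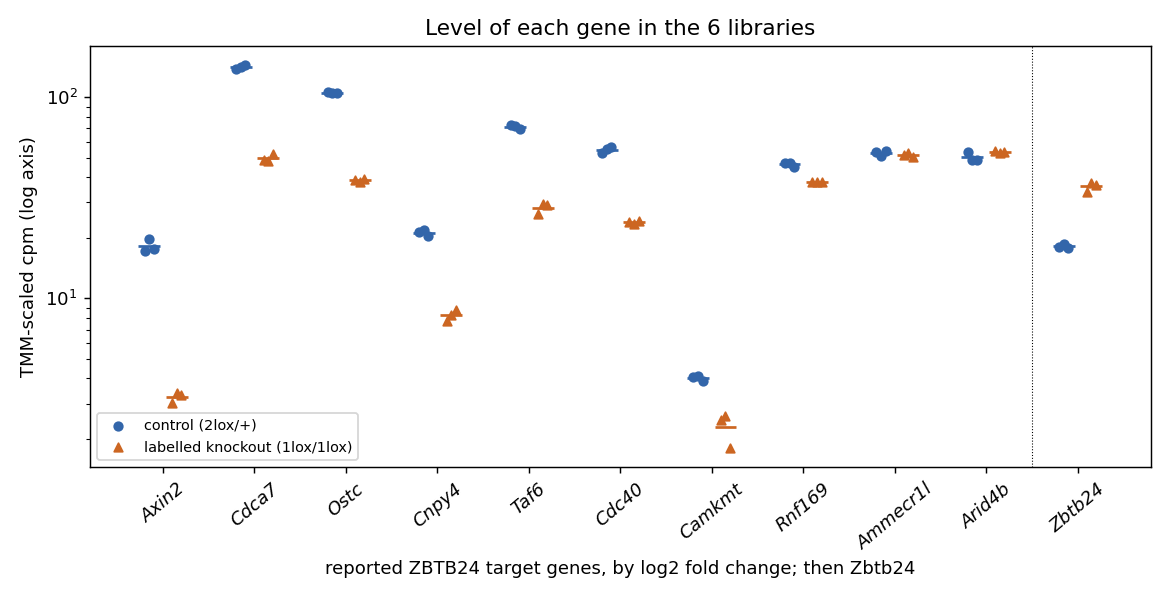
TMM-scaled cpm on a log axis of the 10 reported ZBTB24 targets and of Zbtb24 in each of the 6 libraries (circles, control; triangles, labelled knockout; lines, mean of 3 lines). The 3 triangles lie below the 3 circles for 8 genes, mix with them for Ammecr1l and Arid4b, and lie above them for Zbtb24.

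**Figure D2:**
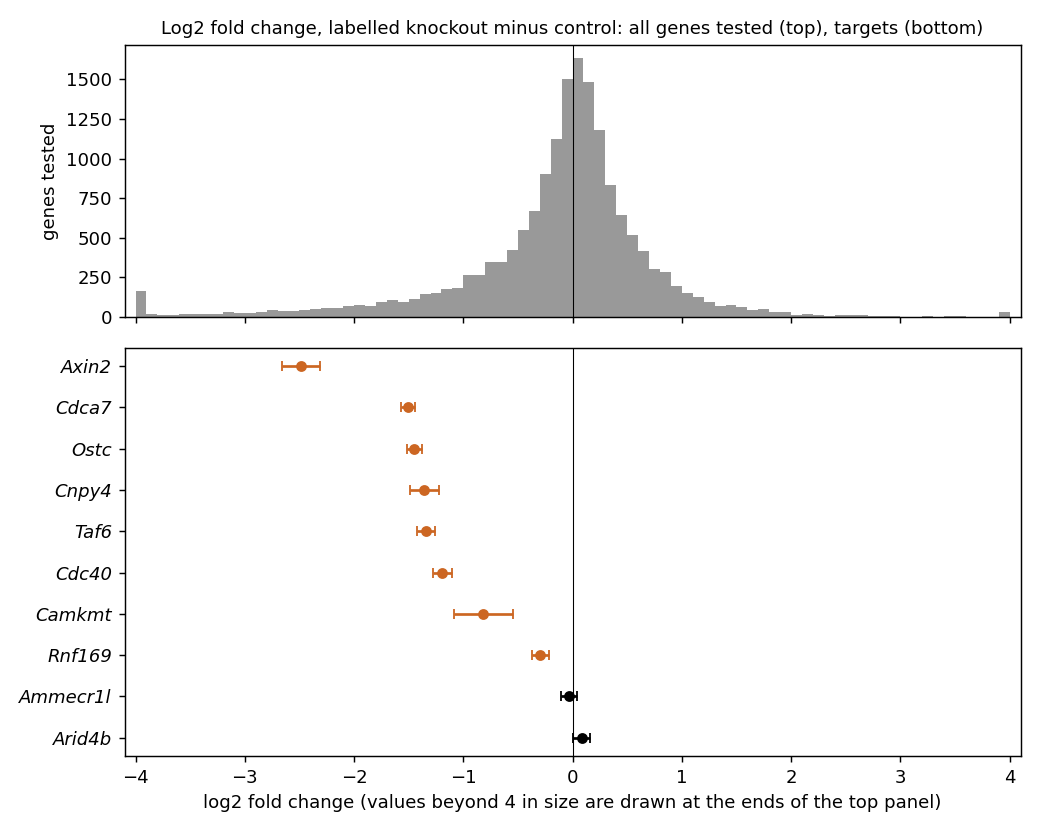
Number of genes by log2 fold change for the 16823 genes tested (top) and log2 fold change with its 95% interval for the 10 reported targets (bottom; orange, lower with FDR at most 0.05; black, not called). Axin2 at -2.49 is farthest to the left, 5 genes lie between -1.50 and -1.19, and Ammecr1l and Arid4b lie within 0.1 of 0.

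Cdca7 (ENSMUSG00000055612, chromosome 2, 72476159 to 72486893) encodes the zinc finger protein that activates HELLS. It had 3880, 3907 and 3972 fragments in the control libraries and 1280, 1185 and 1478 in those labelled knockout. As cpm these were 138, 142 and 145 against 49.0, 48.1 and 52.4. Every library labelled knockout lay near a common level far below every control library. The log2 fold change was -1.50 (95% interval -1.57 to -1.44, standard error 0.033, adjusted p = 6.68e-38 in edgeR's quasi-likelihood test), which left 35.25% of the control level. Of the 11115 genes with a mean of at least 100 fragments, 302, Cdca7 included, had a log2 fold change at or below that of Cdca7.

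Among the 6 other genes of ICF syndrome and DNA methylation listed with Cdca7, 2 fell, 2 rose (Zbtb24 and Cdca7l) and 2 did not pass the test. Dnmt3b, which encodes the ICF syndrome methyltransferase, fell from 431 to 102 cpm, which is -2.07 on the log2 scale (standard error 0.028, adjusted p = 6.72e-47). Hells was at 560 and 525 cpm, a small fall of 0.09 on the log2 scale (adjusted p = 0.00112). Uhrf1 and Dnmt1, which copy methylation after replication, had log2 fold changes of -0.05 and 0.04 and did not pass the test. Cdca7l, the paralog of Cdca7, rose from 39.7 to 58.2 cpm, or 0.55 on the log2 scale (standard error 0.038, adjusted p = 4.04e-18). Beside Cdca7 on the chromosome, Map3k20, a stress-activated kinase gene 33549 bp away, fell by 0.51 on the log2 scale, and Sp3, a transcription factor gene 449534 bp away, had a log2 fold change of -0.0041 and did not pass the test.

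Taf6 and Cnpy4 are neighbours on chromosome 5 that are transcribed away from each other, with GENCODE starts 34 bp apart. Taf6 (ENSMUSG00000036980, 138178617 to 138187451, minus strand) encodes a histone fold subunit of TFIID, the complex that recognizes core promoters. It was counted at 73.2, 72.0 and 69.4 cpm in the control libraries and at 26.3, 29.5 and 29.1 cpm in those labelled knockout. Cnpy4 (ENSMUSG00000036968, 138187485 to 138193918, plus strand) encodes a canopy family protein of the secretory pathway. It was counted at 21.3, 21.98 and 20.4 cpm in the control libraries and at 7.74, 8.29 and 8.79 cpm in the others, with no overlap in either gene. Both genes fell to a similar share of their control level, 39.56% for Taf6 and 39.01% for Cnpy4. The log2 fold change was -1.34 for Taf6 (95% interval -1.42 to -1.26, adjusted p = 5.92e-32) and -1.36 for Cnpy4 (-1.49 to -1.23, adjusted p = 8.70e-24 in edgeR's quasi-likelihood test), and the intervals overlap.

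The genes beside this pair changed little. Mcm7, a subunit of the replicative helicase that lies 6195 bp beyond the end of Taf6, rose slightly with a log2 fold change of 0.19. Ap4m1, a vesicle coat gene on the opposite strand that overlaps the far end of Taf6, fell by 0.21 on the log2 scale. Mblac1, which lies 396 bp from Cnpy4 and had a mean of 37.3 fragments, had a log2 fold change of -0.03 and did not pass the test. Fragments were counted by strand, so Taf6 was separated from Ap4m1.

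Of the 16 other TFIID genes tested, 1 fell, 6 rose and 9 did not pass the test, with a median log2 fold change of 0.06. Taf1, the largest TFIID subunit, rose by a log2 fold change of 0.43, Taf11 rose by 0.23 and Taf4 fell by 0.28. The lowest value in the list was the -0.28 of Taf4. Among the canopy genes and their partners, 4 of 5 tested fell and 1 rose. Cnpy1 rose from 28.0 to 59.4 cpm (log2 fold change 1.08, standard error 0.045, adjusted p = 2.36e-26), whereas Cnpy3, a chaperone of Toll-like receptors, and Hsp90b1, the chaperone it works with, had log2 fold changes of -0.21 and -0.19.

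Cdc40 (ENSMUSG00000038446, chromosome 10, 40831621 to 40883311, minus strand) encodes a splicing factor that acts in the second catalytic step. It was counted at 52.7, 55.2 and 56.6 cpm in the control libraries and at 24.1, 23.4 and 24.4 cpm in those labelled knockout. The groups lay far apart and the 3 lines of each were close together. Cdc40 thus had a log2 fold change of -1.19 (95% interval -1.28 to -1.11, standard error 0.043, adjusted p = 5.77e-29 in edgeR's quasi-likelihood test), or 43.75% of control. Its divergent neighbour Wasf1, an actin regulator whose start lies 164 bp away, was at 53.9 ± 1.29 and 44.8 ± 3.28 cpm (SD, n = 3 lines each), a log2 fold change of -0.27 (adjusted p = 1.15e-07). One of the Cdc40 sites shown above also fell in the window of Wasf1, 178 bases upstream of its GENCODE start. Cdk19, on the other side, had a log2 fold change of -0.10 and did not pass the test, although it did with library totals alone (-0.15) and among genes with a mean of at least 50 fragments (-0.12). Cdc40 lies close to the targeted gene on the same chromosome, as its bounds end at 40883311 and those of Zbtb24 begin at 41450383, and Zbtb24 itself was higher. A local effect of the targeted allele on Cdc40 was not tested.

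Of the 16 other genes of the catalytic spliceosome tested, 4 fell, 9 rose and 3 did not pass the test. The largest changes were rises, in Cdc5l (log2 fold change 0.71), Prpf18, another factor of the second step (0.41), and Bcas2 (0.41). The lowest log2 fold change in the list was -0.23, so no other gene of the list fell as far as Cdc40.

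Ostc (ENSMUSG00000041084, chromosome 3, 130695912 to 130709444) encodes a subunit of the oligosaccharyltransferase, which attaches N-glycans to proteins entering the endoplasmic reticulum. Its levels were 107, 105 and 106 cpm in the control libraries and 38.9, 38.0 and 39.2 cpm in those labelled knockout. The 3 lines of each group nearly coincided, and this was the tightest separation among the 10 genes, with a range within groups of at most 0.045 on the log2 scale and a gap between the groups of 1.42. Ostc had a log2 fold change of -1.45 (95% interval -1.52 to -1.38, adjusted p = 7.18e-37 in edgeR's quasi-likelihood test), and its interval overlaps that of Cdca7. Of the 11 other subunits, 6 fell, 3 rose and 2 did not pass the test, with a median log2 fold change of -0.14. Tusc3, an oxidoreductase subunit of the complex that contains STT3B, fell by 1.02 on the log2 scale, from 47.6 to 23.4 cpm (adjusted p = 6.52e-26). Stt3b, a catalytic subunit, fell by 0.33 and Ost4 rose with 0.25. The neighbour Rpl34, a ribosomal protein gene, had a log2 fold change of 0.38, and Col25a1 had few counts (mean 6.17 fragments) and did not pass the test.

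Axin2 (ENSMUSG00000000142, chromosome 11, 108920349 to 108950783) encodes a scaffold of the complex that marks beta-catenin for destruction, and is itself induced by Wnt signaling. It was counted in 485, 540 and 481 fragments in the control libraries and in 79, 83 and 93 in those labelled knockout. At 17.2, 19.7 and 17.5 cpm against 3.02, 3.37 and 3.29 cpm, it had the largest change of the 10 genes, with no overlap. On the log2 scale it was -2.49 (95% interval -2.66 to -2.31, standard error 0.087, adjusted p = 1.93e-29 in edgeR's quasi-likelihood test), which is 17.83% of control.

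In the destruction complex list, 5 of 11 genes fell, 2 rose and 4 did not pass the test, with a median log2 fold change of -0.005. Tnks, which directs AXIN proteins to degradation, fell by 0.49 on the log2 scale, Axin1 by 0.13, and Csnk1a1, the priming kinase, rose by 0.19. The lowest value in that list was in Apc2, a relative of the scaffold gene Apc with a mean of 49 fragments, at -1.74. Of the 12 genes commonly induced by Wnt, 5 fell, 4 rose and 3 did not pass the test, and 4 of the 5 that fell had a mean of at most 32 fragments. The other, Znrf3, had a mean of 1128 fragments and a log2 fold change of -0.11. The 4 with few fragments had log2 fold changes of -2.265 (Dkk1), -1.058 (Cdx2), -1.033 (Lgr5) and -0.629 (Sp5). Tcf7, Lef1 and Notum rose slightly, with log2 fold changes of 0.22, 0.27 and 0.17. Cdx1, with a mean of 22 fragments, rose with a log2 fold change of 1.765. The rise of Lef1 no longer passed the test without line 1 of the group labelled knockout (log2 fold change 0.17, adjusted p = 0.0625). Rgs9, the next tested gene beyond Axin2, rose with a log2 fold change of 2.22, and Cep112 on the other side with 0.40, which passed the test in edgeR and not in DESeq2 (adjusted p = 0.0743).

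Camkmt (ENSMUSG00000071037, chromosome 17, 85090552 to 85458588) encodes the enzyme that methylates a lysine of calmodulin. It was the least counted of the 10 genes, with 114, 113 and 107 fragments in the control libraries and 65, 64 and 51 in those labelled knockout. In cpm these were 4.05, 4.11 and 3.90 against 2.49, 2.60 and 1.81, and line 3 of the group labelled knockout was the lowest of the 6. Camkmt had a log2 fold change of -0.82 with a wide interval, from -1.09 to -0.55 (95%, standard error 0.13, adjusted p = 6.06e-07 in edgeR's quasi-likelihood test).

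Prepl, a peptidase gene that starts 311 bp from Camkmt on the other strand, fell as well, from 49.5 ± 1.96 to 30.8 ± 0.89 cpm (SD, n = 3 lines each), a log2 fold change of -0.68 (standard error 0.042). The windows of Prepl did not hold the motif. Six2, the next tested gene on the far side of Camkmt, had 14 fragments or fewer in any library and fell by 1.74 on the log2 scale (standard error 0.57, adjusted p = 0.0062). Among the calmodulin genes and related protein methyltransferases the direction was the opposite of that of Camkmt, since 8 of 9 rose and 1 fell, with a median log2 fold change of 0.51. Mettl18, Mettl22 and Mettl21a, which methylate other proteins, had log2 fold changes of 0.87, 0.69 and 0.69.

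Rnf169 (ENSMUSG00000058761, chromosome 7, 99920254 to 99980448) encodes a ubiquitin-binding protein that competes with 53BP1 at DNA double-strand breaks. It fell the least among the genes that passed the test. Its levels of 47.4, 47.1 and 44.8 cpm in the control libraries and 37.8, 38.1 and 37.7 cpm in those labelled knockout did not overlap. This is a log2 fold change of -0.29 (95% interval -0.37 to -0.21, adjusted p = 8.08e-09 in edgeR's quasi-likelihood test), or 81.59% of control. This is a call that depends on the small spread between the clones, because with a dispersion of 0.04 for every gene the adjusted p of edgeR's exact test was 0.444. Of 13 other genes of ubiquitin signaling at breaks, 4 fell, 4 rose and 5 did not pass the test. The largest change among them was in H2afx, the histone that marks breaks, which fell by 1.21 on the log2 scale from 204 to 88.2 cpm (adjusted p = 9.20e-33), while Rad18 and Bard1 rose by 0.64 and 0.57. Rnf168, the ligase whose ubiquitin mark RNF169 reads, had a log2 fold change of -0.07 and did not pass the test (adjusted p = 0.0527). Of the neighbours, Pold3 had a log2 fold change of 0.18, and Xrra1 had 0.03 with few counts.

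Arid4b and Ammecr1l were the reported targets without a call. Arid4b (ENSMUSG00000039219, chromosome 13, 14063232 to 14199603) encodes a subunit of the SIN3 and histone deacetylase corepressor. It was counted at 53.6, 49.0 and 48.7 cpm in the control libraries and at 54.0, 52.9 and 53.3 cpm in those labelled knockout, so that control line 1 lay within the other group. On the log2 scale the difference was 0.08 (95% interval 0.0052 to 0.16, adjusted p = 0.0529 in edgeR's quasi-likelihood test). The threshold is close, and the gene was called higher without control line 1 (log2 fold change 0.13, adjusted p = 0.00463). Tbce and Hecw1, on either side, did not pass the test, although Tbce did with library totals alone (-0.10). Ggps1, which makes geranylgeranyl diphosphate, lies on the other strand and starts 256 bp inside Arid4b, so the 2 genes overlap at their starts. Ggps1 rose from 21.4 to 33.9 cpm (log2 fold change 0.66, standard error 0.048). Of 16 other corepressor subunits, 8 fell, 5 rose and 3 did not pass the test, with log2 fold changes from -0.55 in Ing1 to 0.39 in Sin3a, and -0.42 in Sin3b.

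Ammecr1l (ENSMUSG00000041915, chromosome 18, 31759826 to 31782743) is the autosomal relative of the X-linked Ammecr1 and has no well established function. It was counted at 53.7, 50.9 and 54.2 cpm in the control libraries and at 51.8, 53.1 and 50.5 cpm in those labelled knockout, with the groups mixed. The difference was -0.03 on the log2 scale, and its 95% interval of -0.11 to 0.04 includes 0 (adjusted p = 0.440 in edgeR's quasi-likelihood test). With scaling by library totals alone it was -0.08 and passed the test by a narrow margin (adjusted p = 0.04997). Ammecr1 was at 33.1 and 33.6 cpm and did not pass the test either. Sap130 and Polr2d, beside Ammecr1l, had log2 fold changes of 0.28 and -0.06, and the latter did not pass the test. Polr2d was called lower under 3 alternatives, with log2 fold changes of -0.112 with library totals alone, -0.083 among genes with a mean of at least 50 fragments, and -0.085 without line 3 of the group labelled knockout.

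**Figure D3:**
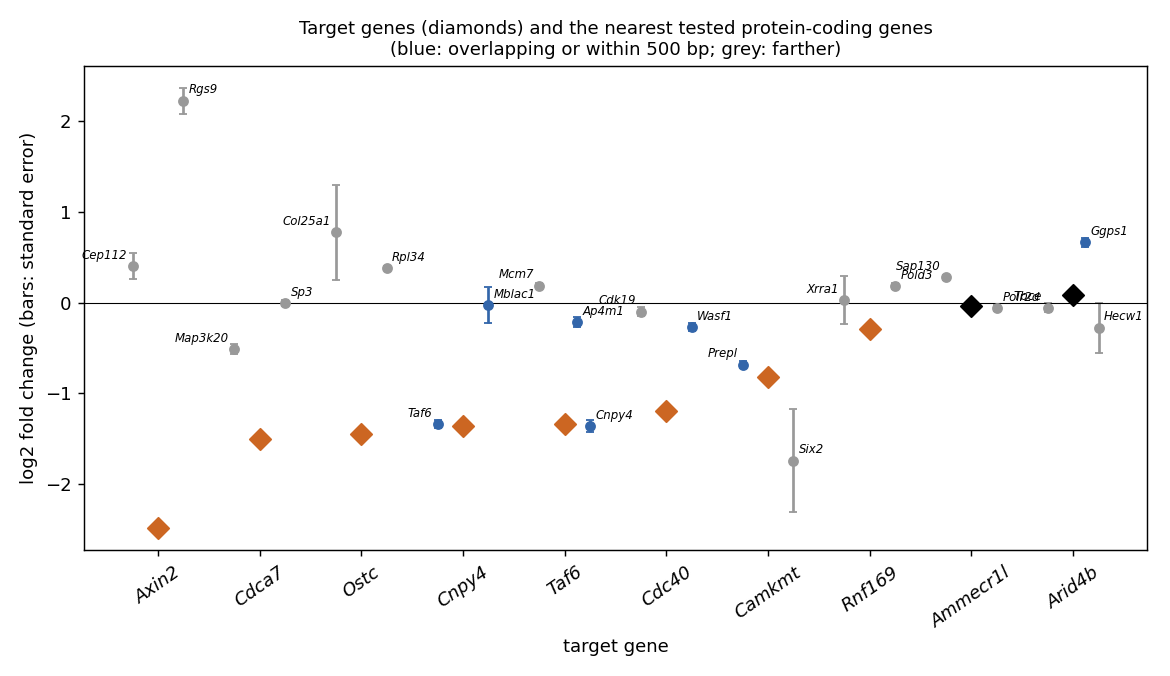
Log2 fold change of each reported target (diamonds; orange, called lower; black, not called) and of the nearest tested protein-coding genes on each side or overlapping it (circles with standard error bars; blue, overlapping or within 500 bp; grey, farther). Taf6 and Cnpy4 lie together near -1.35, Prepl lies near Camkmt, Wasf1 lies well above Cdc40, and Ggps1 lies above Arid4b.

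The divergent pairs thus behaved differently from each other. The members of 4 such pairs had starts at most 311 bp apart. Taf6 and Cnpy4 fell alike, and Camkmt and Prepl fell with log2 fold changes of -0.82 and -0.68 and overlapping intervals. Cdc40 fell by 1.19 where Wasf1 fell by 0.27. Ggps1, whose start overlaps that of Arid4b, rose while Arid4b was not called. Over all 20 neighbours that are not themselves reported targets, 5 fell, 7 rose and 8 did not pass the test. The targets lie on 9 chromosomes. The other genes of these chromosomes with a mean of at least 10 fragments had medians between -0.07 and 0.04.

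**Figure D4:**
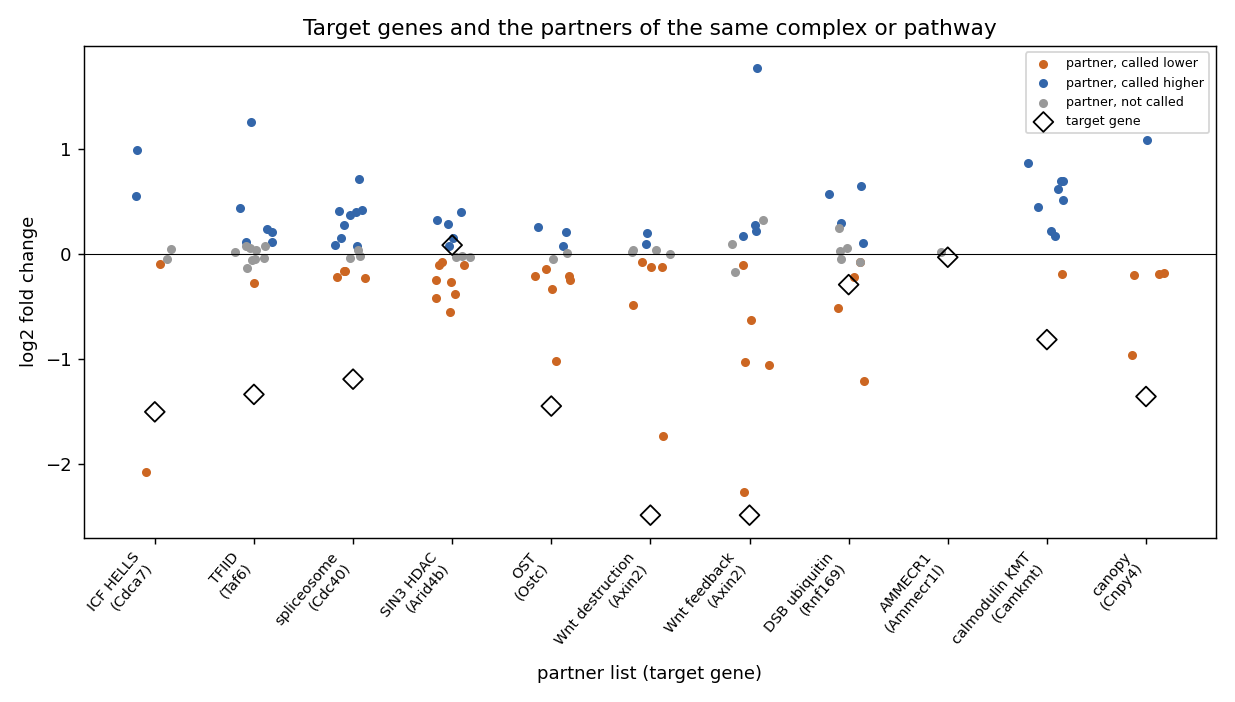
Log2 fold change of the 10 reported targets (open diamonds; Axin2 is drawn for both of its lists) and of the genes of the same complex or pathway (points; orange, called lower; blue, called higher; grey, not called). In the TFIID, spliceosome and oligosaccharyltransferase lists the target lies below every partner, and in the calmodulin list 8 of 9 partners lie above 0.

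Over all 11 lists of partners, 40 of the 116 genes tested fell, 44 rose and 32 did not pass the test. The median log2 fold change was 0.02. These shares are near those of all genes tested, given above as 35.2% lower and 34.4% higher.

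Levels of the 10 genes were also compared per length, as cpm per kilobase of annotated exons (FPKM). In the control libraries the order was Cdca7 with 44.2 ± 1.07, Ostc with 38.4 ± 0.34, Taf6 with 15.98 ± 0.43, Ammecr1l with 9.46 ± 0.32, Cnpy4 with 8.85 ± 0.32, Cdc40 with 6.69 ± 0.24, Rnf169 with 6.08 ± 0.19, Axin2 with 3.29 ± 0.24, Arid4b with 2.97 ± 0.16 and Camkmt with 0.98 ± 0.027 (SD, n = 3 lines). Ranges of the lines overlapped between Ammecr1l and Cnpy4 and between Axin2 and Arid4b, so their order is not fixed. In the libraries labelled knockout, Cdca7 with 15.6 ± 0.70 and Ostc with 14.1 ± 0.22 were still the highest. Ammecr1l with 9.26 ± 0.23 was then above Taf6 with 6.32 ± 0.39, and Axin2 with 0.59 ± 0.033 was close to Camkmt with 0.56 ± 0.10. The exon length covers all annotated transcripts of a gene and is longer than any single one. It was taken from GENCODE Release M21, whereas the fragments were counted on Release M4, so it may differ from the length counted.

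The 3 genes most like Cdca7 across the 6 libraries were sought among 11114 genes with a mean of at least 100 fragments, by the distance between log2 levels relative to the control mean. They were Tnfrsf12a, a TNF receptor family gene, Foxh1, a transcription factor of Nodal signaling, and the predicted gene Gm8113, with distances of 0.10, 0.10 and 0.13. Their log2 fold changes were -1.58, -1.47 and -1.54. With 2 groups, this likeness mostly reflects the size of the change.

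The motif was then followed over all genes. Among the 11949 tested genes with a window, 35.3% fell, and among the 258 whose window held CAGGACCT, the targets left out, 38.0% fell and 33.7% rose. Their median log2 fold change was -0.04, against 0.01 for all genes with a window. A fall with a log2 fold change of -1 or lower was seen in 10.9% of them and in 10.2% of all genes with a window. The 5 reported targets with the motif all fell, with log2 fold changes of -1.504 to -0.82. Of the 3 whose window did not hold it, Axin2 and Rnf169 also fell, with log2 fold changes of -2.49 and -0.29, and Arid4b was not called. The longer CCAGGACCT was in a window of 1 reported target, Taf6.

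**Figure D5:**
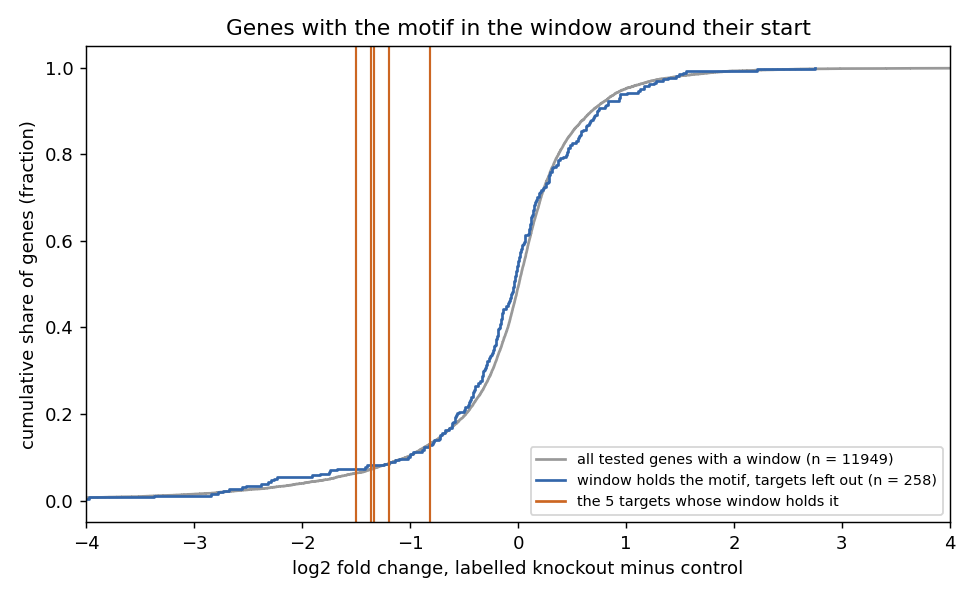
Cumulative share of genes by log2 fold change for the 11949 tested genes with a window around a RefSeq start (grey) and for the 258 of them whose window holds the motif, without the reported targets (blue), with the 5 reported targets that hold it as orange lines. The curves run close together, and the 5 lines lie between -1.504 and -0.82.

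Markers of cell types also differed between the groups. Of 10 pluripotency markers, 9 rose and Zfp42 fell, and their summed level was 5123 to 5233 cpm in the control libraries and 6524 to 6569 cpm in those labelled knockout. Fibroblast markers summed to 74.2 to 79.6 cpm and 38.2 to 41.2 cpm. Of the 7 tested, 6 fell, Col1a1 from 41.1 to 3.93 cpm, and Fbln1 rose, while Lum had 0 counts in every library. Trophoblast markers summed to 393 to 410 cpm and 87.7 to 93.1 cpm, with 4 of 6 falling, mostly through the epithelial keratin genes Krt8 and Krt18. Neural markers summed to 106 to 110 cpm and 39.9 to 41.1 cpm, with Nes and Pax6 falling and Sox1 and Olig2 rising. Most of this sum was Nes, which went from 95.1 cpm in the control libraries to 18.95 cpm in those labelled knockout. Mesoderm markers, of which 1 of 4 tested fell and 2 rose, summed to 12.9 to 14.1 cpm and 8.11 to 9.84 cpm. The fall was in Hand1, from 7.37 cpm in the control libraries to 0.83 cpm in those labelled knockout, while Mixl1 and Eomes rose. Endoderm markers, of which 3 of 7 fell and 1 rose, summed to at most 12.96 cpm in any library. The part of these differences in the changes of the reported targets was not tested.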

How the data were processed

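Per the labels and the methods of the study, the authors removed rRNA reads with Bowtie2 2.1.0, mapped the rest to mm10 with TopHat2 2.0.10, and counted fragments per GENCODE Release M4 gene with HTSeq 0.6.1 in union mode, by strand, discarding those assigned to several genes or locations. The authors deposited the raw counts of 43309 genes, here matched to samples by column name. The 16823 genes that reached 10 counts in any library were tested in R 4.3.3 with edgeR 4.0.16 (TMM, glmQLFit, glmQLFTest, no covariate), with Benjamini-Hochberg adjustment over all genes tested and calls at an FDR of at most 0.05. The standard error is the log2 fold change divided by the square root of F. The test was checked on counts drawn with known changes, and the settings and outcome of that check are not given here. Symbols and coordinates came from GENCODE Release M21 (42425 IDs matched) and promoter windows from RefSeq (GRCm38.p6).

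The 10 genes, the partner lists, the motif and the tests were chosen with earlier results of these data known. Named are the 10 genes, Zbtb24, at most 3 called genes of each partner list averaging 100 counts or more, the nearest tested protein-coding neighbours and the 3 genes most like Cdca7. Named besides these, after their values were seen, were Hells, Uhrf1, Dnmt1, Rnf168, Apc2, Znrf3, Ammecr1, some cell type markers and the genes with 2 motif copies. The same holds for Dkk1, Cdx1, Cdx2, Lgr5 and Sp5. Lists are described by counts and medians, with no set test. Alternatives changed the scaling, test, filter, FDR, minimum change and dispersion, used the replicate number as a block, or left out 1 library. DESeq2 was version 1.42.0. The result for 1 partner gene is not reported here.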

Additional observations from a re-analysis of the deposited data

How the results depend on the processing

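Over 18 alternatives, Axin2, Cdca7 and Ostc kept their direction and their call in each. The common dispersion estimated here was 0.0004, which is a coefficient of variation of 2.00%. Whether the lines differ as much as independently derived clones do was not tested. Taf6, Cdc40, Cnpy4 and Camkmt lost their call only when the dispersion of every gene was set at 0.16 in edgeR's exact test. With that dispersion the log2 fold changes were -1.34 (Taf6, adjusted p = 0.0618), -1.19 (Cdc40, 0.119), -1.36 (Cnpy4, 0.0583), -0.81 (Camkmt, 0.491) and -0.29 (Rnf169, 1), and 3 reported targets, 1119 lower and 337 higher genes, and 3 lower and 1 higher partner genes were called. Rnf169 was also lost with a dispersion of 0.04 (log2 fold change -0.29, adjusted p = 0.444), with 2717 lower and 1625 higher genes and 6 lower and 9 higher partner genes left, and in the test against a log2 size of 0.5 (log2 fold change -0.29), with 2625 lower and 1570 higher genes and 6 lower and 10 higher partner genes. Ammecr1l passed the test as lower when library totals alone were used for scaling (log2 fold change -0.08125, adjusted p = 0.04997), which moved the median of all genes to -0.05.

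Arid4b passed as higher with no low-count filter (log2 fold change 0.0874, adjusted p = 0.0481) and with the replicate number as a block (0.08302, adjusted p = 0.0395), so that 1 reported target was called higher in each. The replicate block changed no other call among the 10 genes. Same-numbered lines did not deviate together (correlations of 0.0061, 0.075 and 0.015 across genes). Much of the deviation within groups was counting noise, so these values cannot tell whether the numbers pair the lines. With each library left out in turn, 8 reported targets were called lower throughout and 0 to 1 higher, the log2 fold change of Arid4b ranged from 0.05626 to 0.1271, that of Axin2 from -2.53 to -2.43, and that of Camkmt from -0.91 to -0.66. The 9-letter motif CCAGGACCT, nested in the longer known sequence, was in a window of 1 reported target, Taf6, and in 0.584% of all windows.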

Other observations

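Few tested genes had 2 or more copies of CAGGACCT in a window, and they were looked at after the matches in the reported targets had been seen. There were 7, of which Taf6, Cdc40 and Camkmt are reported targets. Of the other 4, Tc2n, which encodes a protein with tandem C2 domains, was at 1.62 and 0.73 cpm in the control libraries and those labelled knockout (log2 fold change -1.14, standard error 0.22, adjusted p = 1.42e-05 in edgeR's quasi-likelihood test). Tbxa2r, the thromboxane A2 receptor, was at 1.16 and 0.31 cpm (log2 fold change -1.91, standard error 0.32), with a mean of 20 counts. Mad2l1, of the spindle checkpoint, fell by 0.08 on the log2 scale, from 134 to 126 cpm. Zfp57, a zinc finger protein that protects imprints, rose from 331 to 493 cpm, a log2 fold change of 0.58 (standard error 0.024).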
